A study of Homo sapiens with 14 samples.

Results

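MALAT1, TUG1, KCNQ1OT1, NORAD, OIP5-AS1, MIR17HG and PVT1 are long noncoding RNA genes, 7 of the 78686 gene identifiers in each expression table. They were chosen by name and matched by gene symbol to the identifiers of the tables. All 7 were found, and all 7 passed the low-count filter in both sets of libraries. The cells sequenced were of HCT116, a human colon carcinoma line, engineered with osTIR1(F74G), a plant-derived auxin receptor with an altered binding pocket, and with mAID and Halo tags on SAF-A. SAF-A, encoded by HNRNPU, binds RNA and is part of the nuclear matrix, and adding the auxin analog 5-Ph-IAA to such cells sends it to degradation. Every one of the 7 groups shares this engineered background, including the vehicle groups, and each group has n = 2 libraries. The time-course set holds vehicle (DMSO), 5-Ph-IAA for 3 h and 5-Ph-IAA for 12 h. The Nutlin set holds vehicle (DMSO), Nutlin, 5-Ph-IAA, and 5-Ph-IAA with Nutlin, where Nutlin is an MDM2 inhibitor that stabilises p53. Its treated groups carry a 3 h label without the drug it refers to, and no Nutlin dose is given. The labels do not say whether the tagged line is 1 clone, or whether replicates were separate cultures, so p-values may measure only technical spread.

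Long noncoding RNAs are transcribed and often spliced like messenger RNAs but code for no known protein, and many act where they are made. MALAT1 gathers at nuclear speckles, the bodies that store splicing factors, and the imprinted antisense RNA KCNQ1OT1 silences genes beside it on the same chromosome. TUG1 is found in both nucleus and cytoplasm, while NORAD, which binds PUMILIO proteins, and OIP5-AS1, which binds the RNA-stabilising protein HuR, are best known in the cytoplasm. MIR17HG is the precursor of the miR-17-92 microRNAs, and PVT1 lies beside the MYC gene. The libraries were made from whole-cell RNA, so they hold no information on where in the cell an RNA was.

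The sequences that matter for reading these RNAs are those of the microRNAs cut from MIR17HG, a stretch of the MALAT1 3′ end, a stretch of NORAD, and the promoters of OIP5-AS1 and MIR17HG. OIP5-AS1 and MIR17HG carried the largest differences against vehicle. The 6 main microRNA arms of MIR17HG lie between 91350618 and 91351382 on chromosome 13 (GRCh38.p14, plus strand), and each, from RefSeq, is shown with its seed (bases 2 to 8) in capitals. There are 4 different seeds among the 6 arms, and the microRNAs with a shared seed are set together.
hsa-miR-17-5p: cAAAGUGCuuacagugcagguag
hsa-miR-20a-5p: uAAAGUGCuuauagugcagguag
hsa-miR-18a-5p: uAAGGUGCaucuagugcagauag
hsa-miR-19a-3p: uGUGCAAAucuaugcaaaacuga
hsa-miR-19b-3p: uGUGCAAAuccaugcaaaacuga
hsa-miR-92a-3p: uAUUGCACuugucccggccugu

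The miR-17 and miR-20a arms share the seed AAAGUGC, and the miR-19a and miR-19b arms share GUGCAAA, so each pair can read the same target sites. The seed of miR-18a is AAGGUGC and that of miR-92a is AUUGCAC. The 6 microRNA genes of this cluster had 0 expected counts in all 14 libraries, so only the host RNA was measured and the microRNAs themselves were not.

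MALAT1 has no poly(A) tail in its mature form. RNase P cuts its precursor downstream of an A-rich tract, and that tract folds with U-rich motifs into a triple helix which protects the end. Bases 8248 to 8375 of the 8708-base transcript ENST00000534336.1 (GENCODE 29) are shown in DNA letters, with the U-rich motifs that pair with the tract and the A-rich tract itself (bases 8337 to 8355) in capitals.
MALAT1 3′ region: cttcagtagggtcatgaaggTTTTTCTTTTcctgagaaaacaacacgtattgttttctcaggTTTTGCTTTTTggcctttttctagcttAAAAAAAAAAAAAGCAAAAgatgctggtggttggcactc

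NORAD is known for its many binding sites for PUMILIO proteins, which shorten the life of messenger RNAs. The motif TGTANATA, read on the transcript strand, occurred 15 times in the 5339 bases of ENST00000565493.1, or 2.81 times per 1000 bases. Among 5503 noncoding transcripts of at least 2000 bases, 75.1% had no match and 0.0545% were at least as dense. The stretch from base 1129 to base 1248, the first of 120 bases with the most matches, holds 2 of them, in capitals. The word repeat below is only a label, since repeats were not searched for.
NORAD repeat: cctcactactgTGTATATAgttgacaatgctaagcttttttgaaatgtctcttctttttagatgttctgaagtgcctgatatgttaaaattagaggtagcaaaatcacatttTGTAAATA

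Longest transcripts of the other RNAs held few such motifs. MIR17HG and TUG1 had 2 each, OIP5-AS1 had 1, and MALAT1 and PVT1 had 0. KCNQ1OT1 had 9 in 91667 bases, which is 0.098 per 1000 bases.

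Promoter windows (250 bases before to 50 after the start, RefSeq, GRCh38.p14) were available for 5 of the 7 genes. KCNQ1OT1 and PVT1 are named only. The OIP5-AS1 window, chr15:41283740-41284039 on the plus strand, is shown because OIP5-AS1 fell after 12 h. Its capitals mark an E-box (CACGTG) that begins at -240 and CCAAT boxes that begin at -152 and -56 from the start. On either strand, the E-box was found in 7.26% and the CCAAT box in 34.6% of 35116 such windows.
OIP5-AS1 promoter: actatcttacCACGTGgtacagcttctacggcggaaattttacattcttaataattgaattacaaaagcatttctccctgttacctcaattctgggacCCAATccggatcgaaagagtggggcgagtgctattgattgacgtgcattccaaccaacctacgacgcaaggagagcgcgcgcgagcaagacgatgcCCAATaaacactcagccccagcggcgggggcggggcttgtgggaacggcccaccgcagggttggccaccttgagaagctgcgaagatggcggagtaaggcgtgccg

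The MIR17HG window, chr13:91347437-91347736 on the plus strand, is shown because MIR17HG had its lowest normalised counts in the Nutlin-treated libraries. Capitals mark a match to the p53 half-site, which begins at -43 and which 6.63% of windows hold on either strand. The window also holds 1 CCAAT box at -101, on the minus strand, and its GC content is 73.0%. The E2F motifs TTTCCCGC and TTTGGCGC, the CRE motif TGACGTCA and TATAAA had 0 matches in this window and in that of OIP5-AS1. The E-box had 0 matches in the MIR17HG window, and the p53 half-site 0 in the OIP5-AS1 window. A match of letters is a description and shows no binding.
MIR17HG promoter: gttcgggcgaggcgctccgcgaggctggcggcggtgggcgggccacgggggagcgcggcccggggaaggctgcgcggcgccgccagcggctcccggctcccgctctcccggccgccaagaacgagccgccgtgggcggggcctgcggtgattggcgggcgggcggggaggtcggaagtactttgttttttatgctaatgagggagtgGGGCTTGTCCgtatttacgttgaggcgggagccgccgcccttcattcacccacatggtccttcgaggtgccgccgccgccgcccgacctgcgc

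Libraries of the time-course set held from 29.6 to 35.1 M expected counts (M is 1e6), except 12 h replicate 2 with 3.54 M, and those of the Nutlin set from 12.6 to 17.2 M. Within groups, replicate counts differed beyond sampling noise (chi-square over its degrees of freedom 3.11 to 19.6), most between the Nutlin replicates. All 6 colon epithelial markers were expressed, with a summed level of 3554 to 5569 TPM (transcripts per 1e6 transcripts). The blood markers, among which CD3E was at 0 throughout, summed to at most 0.11 TPM and the endothelial markers to at most 0.23 TPM, and the fibroblast markers, of which DCN was at 0 throughout, to 0.41 to 1.91 TPM. HNRNPU messenger RNA, which is not what 5-Ph-IAA acts on and so does not check the depletion, differed by 0.02 ± 0.062 (log2 fold change ± SE) at 3 h and rose by 0.31 ± 0.063 at 12 h (edgeR adjusted p = 0.00744). CDKN1A, a p53 target, rose by 1.41 ± 0.087 with Nutlin (edgeR adjusted p = 3.16e-05).

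Per unit of length, MALAT1 was the most abundant of the 7 RNAs in all 14 libraries and KCNQ1OT1 the least. MALAT1 ranged from 428.6 to 1160 TPM and took rank 2 among 7846 long noncoding genes by mean TPM, and rank 1 by summed counts. NORAD (36.6 to 52.01 TPM) and PVT1 (31.0 to 51.55 TPM) followed, with ranks 25 and 29. Their order was not stable, since PVT1 stood above NORAD in 4 of the 14 libraries, and the ranges of this pair of neighbours overlapped. OIP5-AS1 came next in every library, at 16.99 to 33.04 TPM and rank 50. TUG1 (6.2 to 13.96 TPM, rank 122) and MIR17HG (2.69 to 8.47 TPM, rank 215) changed places in 2 libraries. KCNQ1OT1 lay between 0.35 and 1.98 TPM, at rank 940. These ranks compare genes, and comparisons between treatments below use counts per M (CPM), normalised within a set, unless TPM is named.

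**Figure D1:**
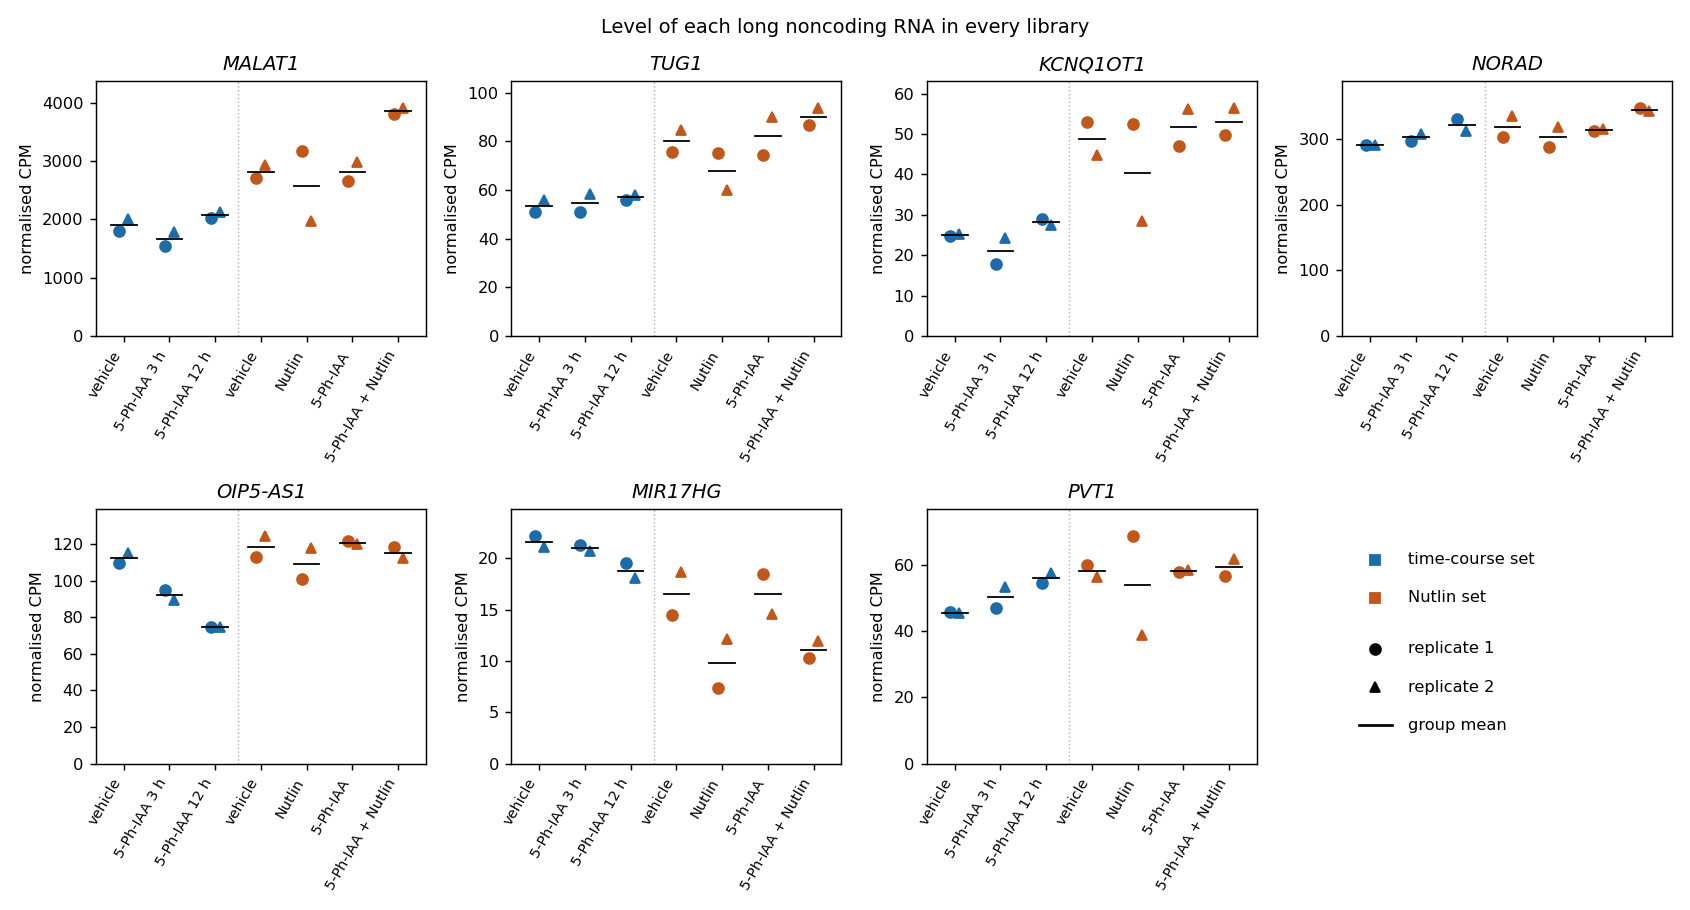
Normalised CPM of each RNA in every library, 1 panel per gene, with circles for replicate 1, triangles for replicate 2 and a bar at the group mean; the sets were scaled separately and each is read against its own vehicle. OIP5-AS1 steps down from 109.6 and 115.3 in vehicle to 74.43 and 74.52 at 12 h, and Nutlin replicate 2 sits low for MALAT1, TUG1, KCNQ1OT1 and PVT1.

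OIP5-AS1 fell after 12 h of 5-Ph-IAA and was the only 1 of the 7 RNAs to pass the test against vehicle in any comparison. This RNA, whose gene overlaps OIP5 on the opposite strand, is known for holding HuR away from its targets and for binding miR-7. It lies on chromosome 15, from 41283990 to 41309737 of GRCh38 (GENCODE 29). Its level was 109.6 and 115.3 CPM in vehicle, 95.17 and 89.19 CPM at 3 h, and 74.43 and 74.52 CPM at 12 h. No library overlapped between these groups, and each later group lay below the one before. In bulk RNA, fewer cells with an RNA and less of it per cell cannot be told apart. The 12 h change was -0.59 ± 0.088 in log2, or 0.662 of vehicle (95% interval -0.79 to -0.40, edgeR adjusted p = 0.00145). At 3 h it was -0.29 ± 0.082 (edgeR adjusted p = 0.544), and from 3 h to 12 h -0.31 ± 0.088 (edgeR adjusted p = 0.0518, or 0.0484 with the replicate number as a block). For 12 h against vehicle 11.4% of the 19049 genes tested were called and 7.97% were called lower, so a single lower call among 7 is near the background. Of the 2822 long noncoding genes tested, 2.02% were called.

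The deposited TPM of OIP5-AS1 was noisier than its counts. It was 33.04 and 25.63 in vehicle and 16.99 and 22.02 at 12 h, and the weighted transcript length ranged from 2353 to 3274 bases among the time-course libraries. On log2(TPM + 0.1) the change had the same size, -0.59 ± 0.18, and did not pass (limma adjusted p = 0.168). OIP5 itself, which codes for a centromere protein and is read from the other strand of the overlapping locus, also fell at 12 h, by 0.47 ± 0.13 (edgeR adjusted p = 0.0368). The kit keeps strand, but the strand setting of the counting is not given in the sources used here, so reads of OIP5 and OIP5-AS1 may not be fully separated. A protein-coding gene model on the same strand as OIP5-AS1 held at most 95.41 counts.

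In the Nutlin set the 5-Ph-IAA libraries did not separate from vehicle for OIP5-AS1. Its level was 112.8 and 124.4 CPM in vehicle, 121.6 and 119.8 CPM with 5-Ph-IAA, 100.8 and 117.9 CPM with Nutlin, and 118.2 and 112.3 CPM with both. Both 5-Ph-IAA libraries lay between the vehicle libraries. The effect of 5-Ph-IAA was 0.03 ± 0.103 there, with a 95% interval of -0.20 to 0.25. The difference between the sets in the 3 h effect was 0.30 ± 0.107 (edgeR adjusted p = 0.714), so it did not pass.

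MALAT1 rose between 3 h and 12 h of 5-Ph-IAA. Its gene spans 65497688 to 65506516 of chromosome 11 on the plus strand (GRCh38, GENCODE 29). Its level was 1801 and 2001 CPM in vehicle, 1547 and 1781 CPM at 3 h, and 2020 and 2120 CPM at 12 h. The 12 h libraries lay above all others of the set and the 3 h libraries below both vehicle libraries. The change from 3 h to 12 h was 0.31 ± 0.069 (edgeR adjusted p = 0.0163), where 8.14% of genes were called and 2.35% were called higher. It was -0.19 ± 0.069 at 3 h against vehicle (edgeR adjusted p = 0.722) and 0.12 ± 0.069 at 12 h (edgeR adjusted p = 0.305), so neither time passed against vehicle. The call between times rested on single libraries. Without 3 h replicate 1 the change was 0.20 (edgeR adjusted p = 0.158), and without the shallow 12 h replicate 2 it was 0.26 (edgeR adjusted p = 0.0614). On log2(TPM + 0.1) it was 0.46 (limma adjusted p = 0.142).

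TALAM1, the antisense transcript of the MALAT1 locus, had from 0.358% to 1.13% of the MALAT1 count in the 14 libraries. Its level was 20.26 and 15.64 CPM in vehicle, 9.03 and 9.06 CPM at 3 h, and 10.65 and 19.18 CPM at 12 h. Both 3 h libraries lay below both vehicle libraries, a difference of -0.99 ± 0.23 that did not pass (edgeR adjusted p = 0.289). If strand was not used in counting, reads of this pair cannot be told apart.

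The other 5 RNAs did not pass the test at 12 h. PVT1, known as a neighbour and partner of MYC, was at 45.69 and 45.37 CPM in vehicle, 47.07 and 53.32 CPM at 3 h, and 54.33 and 57.53 CPM at 12 h. Both 12 h libraries lay above the vehicle and 3 h libraries, a difference of 0.29 ± 0.108 against vehicle (edgeR adjusted p = 0.113). NORAD was at 291.6 and 291.7 CPM in vehicle and at 331.6 and 312.9 CPM at 12 h, a difference of 0.15 ± 0.066 (edgeR adjusted p = 0.187). KCNQ1OT1 was at 24.68 and 25.28 CPM in vehicle, 17.82 and 24.37 CPM at 3 h, and 29.02 and 27.4 CPM at 12 h. Its 12 h libraries were the highest of the set, with a difference of 0.19 ± 0.16 against vehicle (edgeR adjusted p = 0.537). MIR17HG differed by -0.19 ± 0.14 at 12 h and TUG1 by 0.09 ± 0.11 (edgeR adjusted p = 0.471 and 0.703). The median of the 7 changes was 0.12, equal to the 0.12 of all long noncoding genes tested, while the median over all genes tested was -0.0031.

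**Figure D2:**
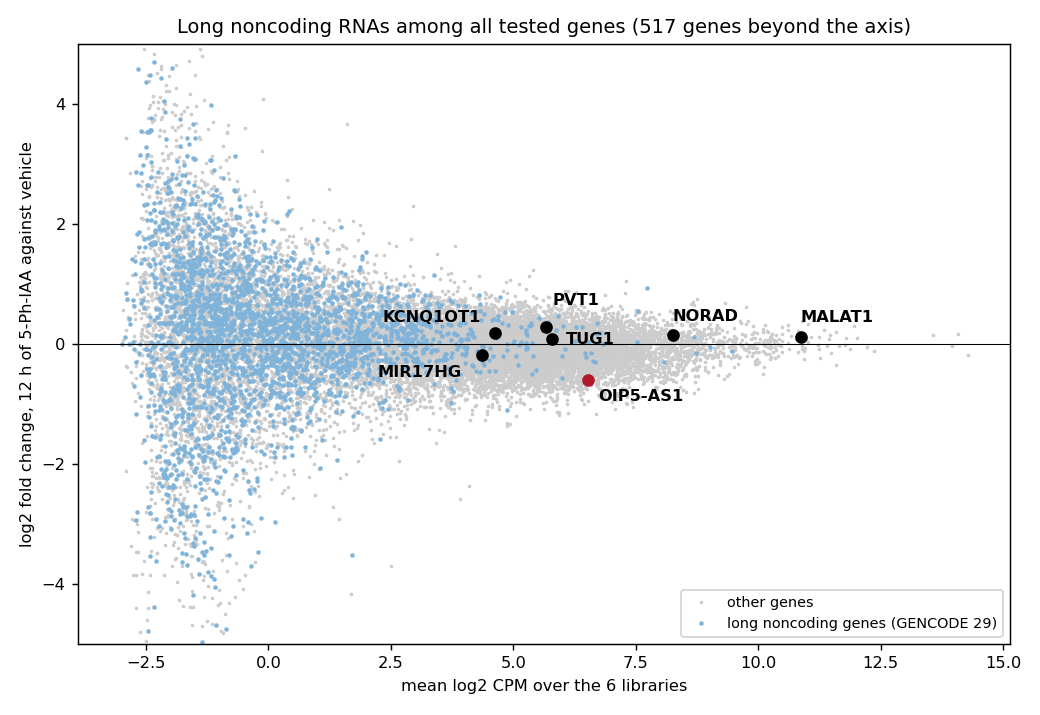
Log2 fold change at 12 h of 5-Ph-IAA against vehicle (y axis) over mean log2 CPM of the 6 time-course libraries (x axis), 1 point per gene tested, with long noncoding genes in blue and the 7 named RNAs as large points. OIP5-AS1 (red) is the named RNA with an adjusted p under 0.05, at -0.59, and the other 6 lie between -0.19 and 0.29.

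At 3 h of 5-Ph-IAA none of the 7 RNAs passed in either set. The time-course changes ran from -0.29 (OIP5-AS1) to 0.14 (PVT1), where 0.0682% of genes were called by edgeR. In the Nutlin set the changes were smaller, from -0.02 (NORAD) to 0.08 (KCNQ1OT1), and 0% of 17251 genes were called by edgeR, against 245 at an unadjusted p under 0.05 and 1 by DESeq2. Their 95% intervals reached down to -0.51 for MIR17HG and up to 0.59 for KCNQ1OT1, so changes up to those sizes lie within the intervals. Fitted as 1 effect common to both sets, the changes ran from -0.13 (OIP5-AS1) to 0.08 (PVT1). There 0% of 18873 genes were called by edgeR, against 872 at an unadjusted p under 0.05 and 5 by DESeq2. The effects of the sets differed for 0.0636% of genes, and for 0 of the 7 RNAs.

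**Figure D3:**
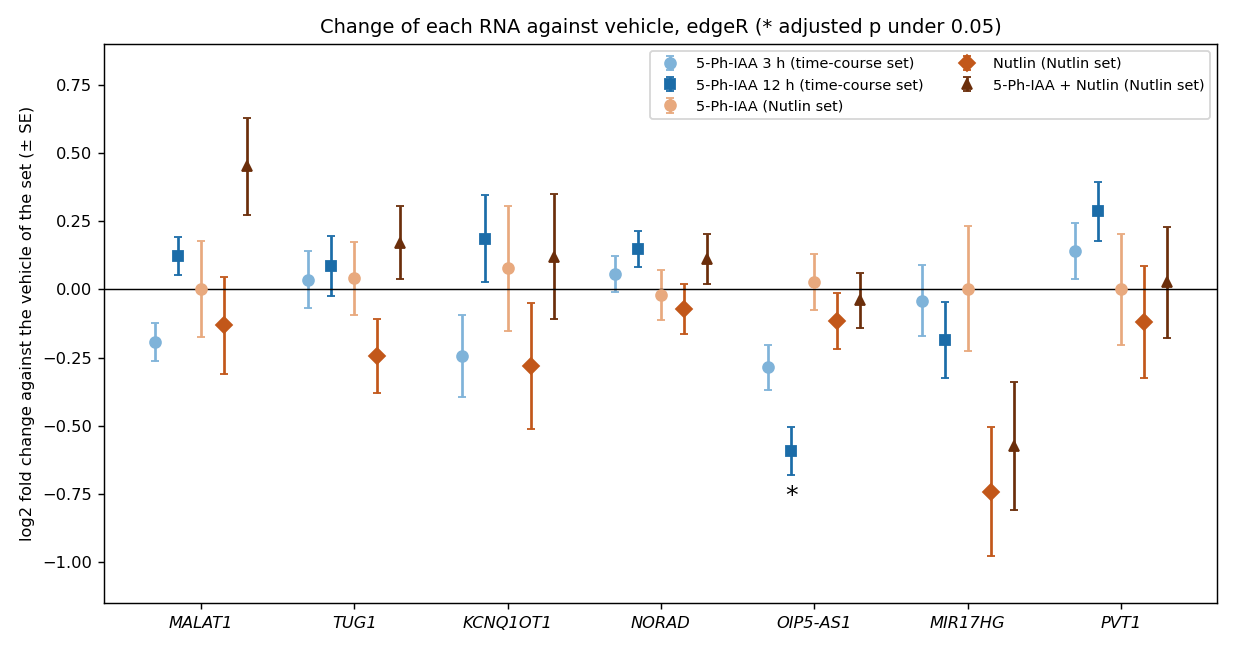
Log2 fold change of each RNA against the vehicle of its own set, with bars of ± SE from edgeR (5 comparisons per gene, n = 2 libraries per group). An asterisk marks an adjusted p under 0.05, which only OIP5-AS1 at 12 h carries; MIR17HG lies lowest in both groups with Nutlin, at -0.74 and -0.57.

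MIR17HG had its lowest CPM in the 4 libraries with Nutlin, and did not pass the test. Its host gene lies on chromosome 13 from 91347820 to 91354579, plus strand (GRCh38, GENCODE 29). It was at 14.47 and 18.66 CPM in vehicle, 18.48 and 14.55 CPM with 5-Ph-IAA, 7.41 and 12.18 CPM with Nutlin, and 10.28 and 11.92 CPM with both. All 4 libraries with Nutlin lay below all 4 without it. On TPM this separation was not complete. The TPM was 6.05 and 7.78 in vehicle, 5.29 and 4.07 with 5-Ph-IAA, 2.69 and 3.93 with Nutlin, and 3.92 and 4.58 with both. On counts the change was -0.74 ± 0.24 for Nutlin against vehicle (edgeR adjusted p = 0.317), where 0.464% of genes were called. It was -0.57 ± 0.23 for the combination against vehicle (edgeR adjusted p = 0.646, 0.325% called) and -0.58 ± 0.23 against 5-Ph-IAA (edgeR adjusted p = 0.581, 0.388% called). Averaged over both arms it was -0.66 ± 0.17, or 0.633 of the level without Nutlin (edgeR adjusted p = 0.106, 1.44% called). The library with the lowest value decided the size. Nutlin replicate 1 alone gave -1.16 (edgeR adjusted p = 0.00653 with replicate 2 left out), a value whose spread comes from the other groups, while the average over arms without it was -0.51 (edgeR adjusted p = 0.0176). With no low-count filter the Nutlin effect was -0.74 (edgeR adjusted p = 0.0129) and the average -0.66 (edgeR adjusted p = 0.00014), and DESeq2 gave an average of -0.67 (adjusted p = 0.0379). The counts behind these levels were low, from 94.62 to 301.0 expected counts per library.

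The Nutlin replicates disagreed on MALAT1, TUG1, KCNQ1OT1 and PVT1. MALAT1 was at 3173 and 1977 CPM with Nutlin, against 2704 and 2936 CPM in vehicle. Thus 1 replicate lay above both vehicle libraries and the other below them. KCNQ1OT1 was at 52.41 and 28.56 CPM with Nutlin against 53 and 44.73 CPM, PVT1 at 68.63 and 38.85 CPM against 59.97 and 56.35 CPM, and TUG1 at 75.26 and 59.98 CPM against 75.42 and 84.52 CPM. In each of these 4 RNAs replicate 2 was the lowest library of the whole set. All 7 RNAs lay below the vehicle mean in Nutlin replicate 2, with a median log2 ratio of -0.444, and 4 of 7 in replicate 1, with a median of -0.088.

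With both replicates, all 7 Nutlin changes were below 0, from -0.07 (NORAD) to -0.74 (MIR17HG), and none passed. Their median was -0.13, against 0.019 for all long noncoding genes tested and -0.0033 for all genes tested. With replicate 1 left out, the changes were -0.51 for MALAT1, -0.77 for KCNQ1OT1, -0.58 for PVT1 and -0.41 for TUG1. These values rest on the lone replicate 2, so no test is read from them. With replicate 2 left out instead, the Nutlin effect on MALAT1 averaged over both arms was 0.31, against 0.16 with all libraries. The replicates carry the same treatment label and differ, and the source of the difference was not tested.

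**Figure D4:**
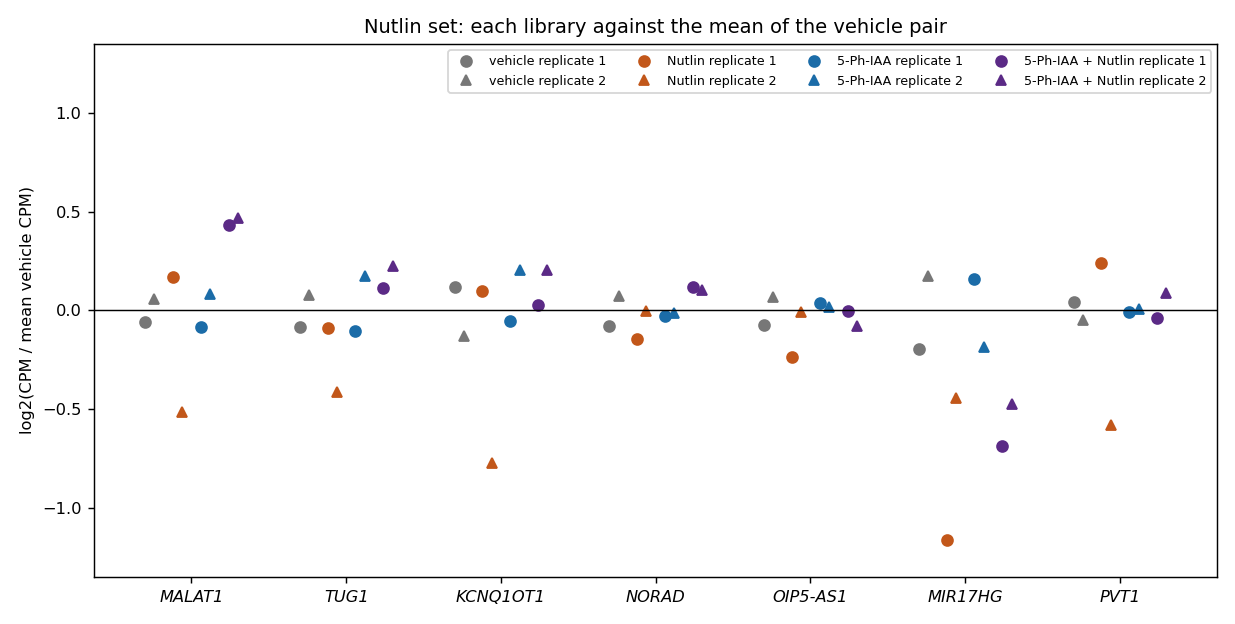
Log2 ratio of each library's CPM to the mean of the vehicle pair of the Nutlin set, by RNA, with circles for replicate 1 and triangles for replicate 2 and a colour per group. Nutlin replicate 2 (orange triangles) is below 0 for all 7 RNAs, the libraries with 5-Ph-IAA and Nutlin stand highest for MALAT1, and every library with Nutlin is below 0 for MIR17HG.

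MALAT1 was highest in the libraries with 5-Ph-IAA and Nutlin together. It was at 3805 and 3907 CPM there, against 2704 and 2936 CPM in vehicle and 2663 and 2983 CPM with 5-Ph-IAA. Both libraries lay above the other 6 of the set. The difference was 0.45 ± 0.18 against vehicle, 0.45 ± 0.18 against 5-Ph-IAA and 0.58 ± 0.18 against Nutlin (edgeR adjusted p = 0.613, 0.565 and 0.604). These comparisons share the combination libraries, so they are not separate evidence. Where only vehicle and the combination were fitted, without the Nutlin replicates that widen the estimate of spread, the difference was 0.46 ± 0.061 (edgeR adjusted p = 0.000704). That fit called 392 genes, against 56 with all groups. Against 5-Ph-IAA the same kind of fit gave 0.45 ± 0.057 (edgeR adjusted p = 0.000124), with 622 genes called against 67. With either Nutlin replicate left out the difference from vehicle was also 0.45. With no low-count filter it was 0.46 as well (edgeR adjusted p = 0.00172), where 268 genes were called. The difference from vehicle did not pass under DESeq2, with other scaling factors, with the replicate number as a block, or on log2(TPM + 0.1).

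The interaction, which asks if the effect of 5-Ph-IAA depended on Nutlin, was above 0 for all 7 RNAs and passed for none with all libraries and the filter. It ran from 0.05 ± 0.14 (OIP5-AS1) to 0.58 ± 0.25 (MALAT1, edgeR adjusted p = 0.989). The effect of 5-Ph-IAA on top of Nutlin was likewise above 0 for all 7, from 0.08 to 0.58, and the libraries behind both contrasts are in part the same. In each of these comparisons 0% of 17251 genes were called by edgeR. At an unadjusted p under 0.05 there were 623 genes for the interaction and 1404 on top of Nutlin, and DESeq2 called 1 and 2. The median of all long noncoding genes tested was also above 0, at 0.12 for the interaction and 0.11 on top of Nutlin, where the 7 RNAs had medians of 0.21 and 0.18. Without Nutlin replicate 1, the interaction was 0.96 for MALAT1, 0.82 for KCNQ1OT1, 0.61 for PVT1 and 0.54 for TUG1. On top of Nutlin, the same omission gave 0.96 for MALAT1, 0.89 for KCNQ1OT1, 0.60 for PVT1 and 0.58 for TUG1. These values again rest on a lone Nutlin library, so no test is read from them. With no low-count filter, MALAT1 passed on top of Nutlin (0.59, edgeR adjusted p = 1.35e-05) and in the interaction (0.59, edgeR adjusted p = 0.0283). That setting called 136 genes on top of Nutlin and 57 in the interaction, against 0 in each with the filter.

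NORAD is named for its activation by DNA damage through p53, and its Nutlin libraries overlapped those of vehicle. It was at 302.8 and 336.0 CPM in vehicle, 289.0 and 318.2 CPM with Nutlin, 313.3 and 316.0 CPM with 5-Ph-IAA, and 347.2 and 342.9 CPM with both. On CPM the groups overlapped except for the combination, which lay above the rest. On TPM the combination, at 47.14 and 52.01, overlapped vehicle, at 47.29 and 51.72. The Nutlin effect was -0.07 ± 0.092, with a 95% interval of -0.28 to 0.13 (edgeR adjusted p = 0.823).

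Besides levels, the tables report for each gene the transcript length weighted by how RSEM assigned reads to its transcripts. RSEM shares a read among the transcripts it fits, so counts can be fractional, and those of MALAT1 were fractional in all 14 libraries. For MALAT1 the length was 2349 to 2742 bases, while its longest GENCODE 29 transcript has 8708 bases, and the tables list 73 transcripts for the gene against 17 in GENCODE 29. KCNQ1OT1 is transcribed from a single exon of 91667 bases in GENCODE 29, and its length ran from 17697 to 46041 bases. In 3 h replicate 2 its length was 46041 bases with 24.37 CPM and 0.35 TPM. In 3 h replicate 1 the length was 17697 bases with 17.82 CPM and 0.64 TPM. The order of these replicates was thus opposite by CPM and by TPM. PVT1, with 426 listed transcripts, had a length of 946.8 to 1202 bases, and NORAD, with 5, one of 4095 to 5304 bases.

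**Figure D5:**
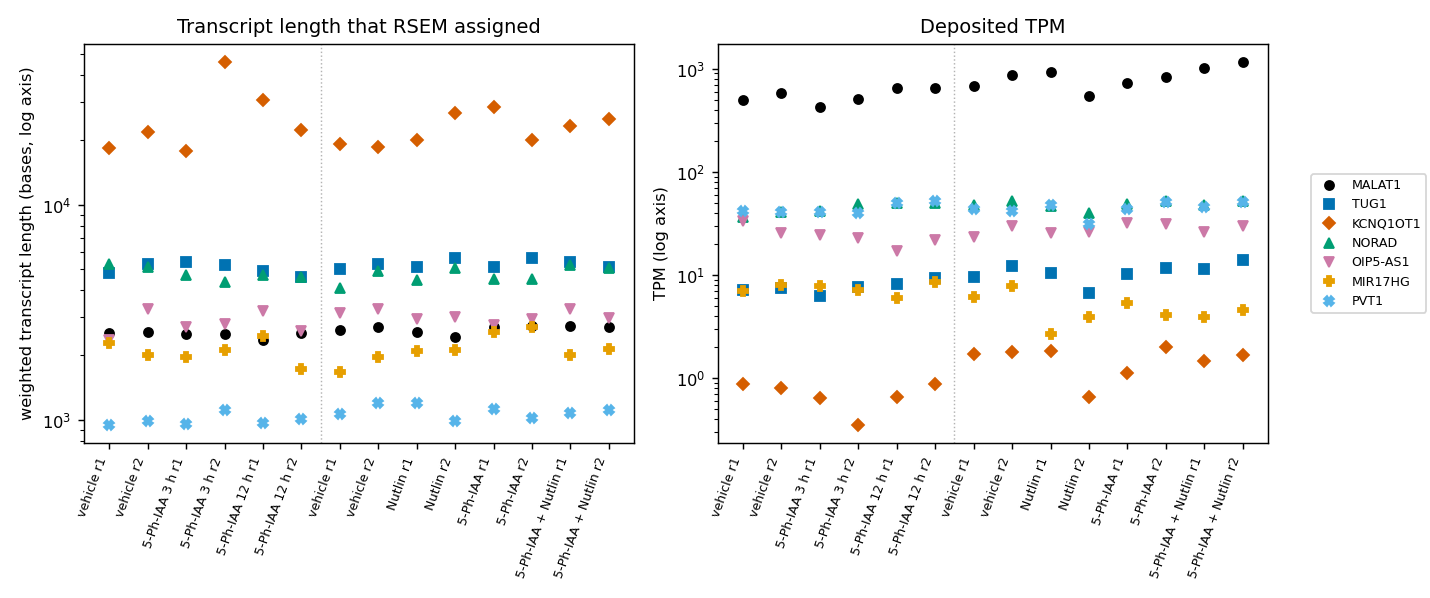
Weighted transcript length (left, bases, log axis) and TPM (right, log axis) of the 7 RNAs in each of the 14 libraries, r1 and r2 being replicates 1 and 2 and the dotted line separating the time-course set (left) from the Nutlin set. KCNQ1OT1 has its longest length, 46041 bases, in the library where its TPM is lowest, 0.35.

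Genes around the 7 loci were given as a list of 23, of which 20 were tested in the time-course set. At 12 h 4 rose and 1 fell against vehicle. NEAT1, the paraspeckle RNA beside MALAT1, rose by 0.55 ± 0.086 (edgeR adjusted p = 0.00187) after a difference of -0.52 ± 0.085 at 3 h (edgeR adjusted p = 0.0672). LTBP3, a TGF-beta binding protein gene further along chromosome 11, rose by 0.72 ± 0.15 (edgeR adjusted p = 0.00825). MORC2, a silencing ATPase gene that shares its start region with TUG1, rose by 0.41 ± 0.12 (edgeR adjusted p = 0.0432). MYC, the neighbour of PVT1, rose by 0.23 ± 0.068 (edgeR adjusted p = 0.0499), and OIP5 is the 1 that fell. None of the 20 was called with Nutlin, where MYC differed by -0.38 ± 0.104 (edgeR adjusted p = 0.227). Of the genes KCNQ1OT1 is known to silence, CDKN1C differed by -0.36 ± 0.49 at 12 h (edgeR adjusted p = 0.73). SLC22A18 differed by -0.26 and PHLDA2, in the other direction, by 0.49 (edgeR adjusted p = 0.841 and 0.142). KCNQ1, on the other strand, had only 6 to 20 expected counts per library.

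Of 20 genes for MALAT1 processing and nuclear speckles, 1 rose and 3 fell at 12 h, with a median of -0.02. SRRM2, a scaffold protein of speckles, rose by 1.05 ± 0.12 (edgeR adjusted p = 0.000443). The splicing factor genes SRSF2 and SRSF3 fell by 0.39 ± 0.067 and 0.36 ± 0.061 (edgeR adjusted p = 0.00332 and 0.00285). POP1, the large protein subunit of RNase P, fell by 0.33 ± 0.084 (edgeR adjusted p = 0.0249), and it also fell with Nutlin averaged over both arms, by 0.39 ± 0.064 (edgeR adjusted p = 0.0151). On log2(TPM + 0.1) the 12 h sign turned for SRSF3 (0.15 ± 0.079) and POP1 (0.05 ± 0.10), without passing (limma adjusted p = 0.361 and 0.84). The median over all genes tested was 0.088 on that scale, so POP1 still lay below the median gene. Of 8 NORAD partners, PRPF19, a ubiquitin ligase of the spliceosome, rose by 0.40 ± 0.092 and RBMX, an RNA-binding protein, fell by 0.48 ± 0.11 (edgeR adjusted p = 0.0155 and 0.0147).

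For KCNQ1OT1, 3 of 10 silencing partners fell at 12 h and 0 rose. They were EED (-0.64 ± 0.11) and SUZ12 (-0.56 ± 0.12), both of the Polycomb complex that methylates histone H3, and SMCHD1 (-0.51 ± 0.093), a chromatin protein of imprinted clusters. Their edgeR adjusted p-values were 0.00342, 0.00961 and 0.0043. Of 3 tested partners of OIP5-AS1, CCNG1, which codes for cyclin G1, fell by 0.89 ± 0.072 on counts (edgeR adjusted p = 0.000171). On TPM its groups overlapped, at 87.99 to 91.44 in vehicle and 78.41 to 96.99 at 12 h, a difference of -0.04 ± 0.11 (limma adjusted p = 0.893). Cyclin G1 is a partner of the kinase GAK, whose messenger RNA is a known target of OIP5-AS1. GAK itself differed by 0.08 ± 0.096 and ELAVL1, which codes for HuR, by 0.17 ± 0.096, and neither passed (edgeR adjusted p = 0.67 and 0.295).

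Among 17 tested regulators of MIR17HG and PVT1 and targets of the microRNAs, 2 rose and 2 fell at 12 h. MYC (above) and TGFBR2, a TGF-beta receptor, rose, the latter by 0.42 ± 0.11 (edgeR adjusted p = 0.0272). RB1, which restrains the cell cycle, was among those that fell, by 0.87 ± 0.15 (edgeR adjusted p = 0.00292). THBS1, a secreted target of the miR-17-92 microRNAs, rose at 3 h by 1.03 ± 0.098 (edgeR adjusted p = 0.00171) and was the only gene of this list called there. With Nutlin CDKN1A was the only gene of the list called. E2F1, an activator of MIR17HG, differed by -0.07 ± 0.11 with Nutlin (edgeR adjusted p = 0.879). Across these lists the share called at 12 h is read against the 11.4% of all genes.

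Of 22 tested long noncoding RNAs outside the 7, 3 were called at 12 h, where 2.02% of all long noncoding genes and 11.4% of all genes were. NEAT1 (above) and DANCR rose, DANCR by 0.35 ± 0.086 (edgeR adjusted p = 0.0198). GAS5, which hosts small nucleolar RNAs, fell by 0.29 ± 0.079 (edgeR adjusted p = 0.0312). Of 18 microRNA host genes, MIR100HG fell by 0.56 ± 0.095 (edgeR adjusted p = 0.003) and 0 rose. With Nutlin averaged over both arms, MIR34AHG, the precursor of the p53-induced miR-34a, rose by 0.62 ± 0.11 (edgeR adjusted p = 0.0222). LINC00511 rose by 0.60 ± 0.088 and SNHG12 fell by 0.38 ± 0.06 (edgeR adjusted p = 0.00844 and 0.0128). These 3 of 40 genes stand beside the 1.44% of all genes called in that comparison.

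The 12 h calls on these lists hold for counts and not for TPM. Of 21 list genes called at 12 h none passed on log2(TPM + 0.1), with limma adjusted p-values from 0.0796 to 0.893, and limma called 2 of all genes there. The sign turned for 2 of the 21, SRSF3 and POP1, and for 188 of the 2163 genes called, of which 181 had been called lower. These signs are read against 0, while the median 12 h change of all genes tested was 0.088 on TPM and -0.0031 on counts. Among the called list genes named above that kept their sign, TPM gave a smaller change for SMCHD1 (-0.19), RBMX (-0.16), SUZ12 (-0.33), SRSF2 (-0.25) and RB1 (-0.54). The same held for GAS5 (-0.19), NEAT1 (0.30), EED (-0.54), MYC (0.21), MIR100HG (-0.42) and CCNG1 (-0.04). TPM gave a larger change for MORC2 (0.78), TGFBR2 (0.65), LTBP3 (0.88), PRPF19 (0.55), OIP5 (-0.57), SRRM2 (1.11) and DANCR (0.38). THBS1 at 3 h was 1.02 on TPM (limma adjusted p = 1). With Nutlin averaged over both arms POP1, SNHG12, LINC00511 and MIR34AHG kept their direction on TPM and did not pass (limma adjusted p = 0.153 to 0.31), while CDKN1A passed. The source of the difference between counts and TPM was not tested.

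The RNAs varied in different ways across libraries. Likeness was measured as Pearson's r of log2 CPM over the 14 libraries, centred within each set, among 14331 genes. These libraries share sets and depth, so r is a description. MALAT1 was most like TAF15 (0.957), AAK1 (0.931) and UBXN7 (0.93), and TUG1 most like VCAN (0.916), UBXN7 (0.91) and PRKDC (0.907). For KCNQ1OT1 they were OR51I2 (0.937), WNK1 (0.935) and PCNT (0.932), and for PVT1 PABPC4 (0.966), CAD (0.961) and AHNAK (0.961). OIP5-AS1 was most like SYPL1 (0.981), TBL1XR1 (0.977) and CAPZA1 (0.969), and MIR17HG most like NKIRAS1 (0.948), MTERF3 (0.945) and CSTF1 (0.931). NORAD had no gene above 0.815, which was PMS2P3, followed by GPR63 (0.813) and AHCYL1 (0.799). Among the 7 themselves, MALAT1 had r of 0.841 with TUG1 and 0.809 with KCNQ1OT1, and KCNQ1OT1 0.819 with PVT1, the 4 RNAs that were low in Nutlin replicate 2. OIP5-AS1 had negative r with these 4, down to -0.561 with PVT1.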

How the data were processed

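Total RNA was extracted with Trizol and made into rRNA-depleted, stranded libraries, per the labels' protocols. The submitters' processing notes name STAR 2.7.10b, RSEM, DESeq2 1.48.1 and hg38 (GRCh38) without their roles; annotation and strand setting are not given in the sources used here. Per the file headers, the deposited RSEM tables hold expected counts, TPM and weighted transcript lengths per gene. Symbols were matched for 53.6% of identifiers, and GENCODE 29 positions and types for 72.8%.

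Expected counts were rounded. Genes were kept by filterByExpr (minimum count 10, total 15), scaled by TMM and tested two-sided with the quasi-likelihood test of edgeR 4.0.16 in R 4.3.3, with all groups of a set in 1 fit. Adjusted p-values are Benjamini-Hochberg over all genes tested, at 0.05, separately in each of 12 comparisons. SE is the log2 fold change over the square root of F. All comparisons of a set share control libraries. The 7 genes and all lists were chosen with earlier results of these data known. Named genes are these 7, HNRNPU and CDKN1A, and from each list up to 4 that passed, by p; others are named for their known link to a locus. Values of some list genes are not reported here.

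In simulated data for 12 h against vehicle (17911 genes), 59% of 98 genes changed 2-fold and 41% of 97 changed 1.5-fold were recovered, and for Nutlin against vehicle (16790 genes) 55% of 97 and 28% of 98. Of the 110 and 91 genes called there, 12 and 11 had not been changed (11% and 12%, against the nominal 5%). Alternatives were DESeq2 1.42.0, RLE factors, no filter, a replicate block, compared groups only, protein-coding scaling, and each library left out. Limma 3.58.1 on log2(TPM + 0.1) was added after seeing the data, for the 7 RNAs and the list genes.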

Additional observations from a re-analysis of the deposited data

Results flagged for a closer look

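THBS1, a secreted target of the miR-17-92 microRNAs, differed between the sets in its response to 3 h of 5-Ph-IAA, by a test of the difference itself. The log2 effect in the Nutlin set minus that in the time-course set was -1.103 ± 0.12 (edgeR adjusted p = 0.00524), and -1.24 ± 0.41 on log2(TPM + 0.1), which did not pass (limma adjusted p = 0.998). In the time-course set it was at 45.09 and 43.66 CPM in vehicle and at 84.94 and 96.68 CPM after 3 h. In the Nutlin set it was at 69.56 and 67.51 CPM in vehicle and at 64.02 and 67.82 CPM with 5-Ph-IAA. The vehicle levels of the sets were scaled separately.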

How the results depend on the processing

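Over the 7 RNAs, 12 comparisons and all alternatives there were 1190 values. Of these 1149 kept their call or lack of one, 37 passed where the reported value did not, 4 no longer passed, and 0 called values reversed. Among the 1149, 80 uncalled values changed sign without passing. The 4 that no longer passed are given above (OIP5-AS1 at 12 h on TPM, and MALAT1 from 3 h to 12 h on TPM and without 1 of 2 libraries). The cause of these changes was not tested.

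The number of genes called moved as follows, under DESeq2, no low-count filter, compared groups only and the replicate block where more than 1.5 times off. At 3 h (13 called) DESeq2 gave 51, no filter 193 and the block 45, and at 12 h (2163) compared groups gave 1391. From 3 h to 12 h (1551) no filter gave 2448. For Nutlin (80) DESeq2 gave 144, no filter 405 and compared groups 27. For 5-Ph-IAA in the Nutlin set (0) they gave 1, 53 and 9. For the combination against vehicle (56) they gave 104, 268 and 392, and against 5-Ph-IAA (67) 103, 270 and 622. On top of Nutlin (0) DESeq2 gave 2 and no filter 136, and for the interaction (0) 1 and 57. No filter gave 635 for Nutlin averaged over arms (249). At 3 h common to both sets (0) DESeq2 gave 5 and no filter 110, and for the difference between sets (12) DESeq2 gave 47, no filter 177 and the block 6. The replicate block changed no other call on the 7 RNAs than that of OIP5-AS1 from 3 h to 12 h. Deviations of same-numbered libraries correlated from -0.0888 to 0.047 across genes, so the numbers share only a label.

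With each library left out in turn, the number called ranged from 23 to 283 at 3 h, from 961 to 2446 at 12 h and from 612 to 2315 between 3 h and 12 h. It ranged from 25 to 2131 for Nutlin, from 0 to 1 for 5-Ph-IAA in the Nutlin set, from 21 to 395 for the combination against vehicle and from 16 to 429 against 5-Ph-IAA. It ranged from 0 to 2490 on top of Nutlin, from 0 to 1035 for the interaction, from 84 to 1977 for Nutlin averaged over arms, from 0 to 2 at 3 h common to both sets and from 5 to 145 for the difference between sets. The high ends in the Nutlin set came without 1 of the Nutlin replicates, at 12 h the low end without 12 h replicate 1 (the deep one), and at 3 h the high end without vehicle replicate 1. A length filter on libraries with under 10 counts had no effect to test, since each of the 7 RNAs had at least 66.0 counts in every library.

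Depth limits the 12 h comparison, in which replicate 2 had 3.54 M counts and 66.0 of MIR17HG. With 2 libraries per group, 41% of simulated 1.5-fold changes were recovered at 12 h and 28% with Nutlin.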
